A study of Mus musculus with 2 samples.

Results

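Junctions hold skin cells together, and 45 genes that build them are described here, all of which were found by symbol in a deposited table of 23233 genes. They were listed by symbol and comprise 10 claudins, 8 other tight junction genes, 11 adherens junction genes, 12 desmosome genes and 4 connexins. Their RNA was measured in ZIP10-positive and ZIP10-negative cells, sorted by flow cytometry from a dissociated suspension of ventral skin of 7-day-old wild-type C57BL/6 mice. The cells had been stained with a polyclonal antibody against ZIP10, a zinc importer of the plasma membrane, or with normal rabbit IgG, and with the viability dye 7-AAD. Both populations passed through the same overnight digestion with dispase and collagenase. The sample titles speak of hair follicles, while the protocol describes whole ventral skin, and no sort on a cell type marker is named. Each population is 1 library, and the labels state neither how many animals were used nor whether they were pooled. There is therefore no test and no p-value, and every difference describes these 2 libraries.

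Tight junctions seal the space between epithelial cells. Their strands are made of claudins, joined by occludin and its relatives and by the adhesion molecule encoded by F11r, and they are tied to the cytoskeleton by scaffold proteins such as that of Tjp1. Adherens junctions join cells through classical cadherins and nectins, which are linked to actin by catenins, afadin and vinculin. Desmosomes join the keratin filaments of neighbouring cells through desmogleins and desmocollins, plakoglobin, plakophilins and desmoplakin. Connexins form gap junction channels, which pass ions and small molecules between cells. In skin these structures are most abundant in keratinocytes, but several of their genes are also used by fibroblasts, endothelial cells and leukocytes.

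Values are in RPKM, which divides reads by transcript length and by library size and so allows levels of different genes to be set side by side. Depth was recovered from ratios of whole read numbers and annotated transcript lengths as about 2.78e+06 reads in the ZIP10-positive and 2.71e+06 reads in the ZIP10-negative library. At that depth 1 read on a transcript of 2000 bases is worth 0.200 RPKM. Most genes had higher deposited values in the ZIP10-positive library: the median of 9620 genes at 1 RPKM or more in both libraries stood at a ratio of 1.97, ZIP10-positive over ZIP10-negative. Globin genes made up 3.46% of the summed RPKM of the ZIP10-positive and 59.4% of that of the ZIP10-negative library. Each gene is therefore given relative to the median gene, as log2((positive + 1)/(negative + 1)) after that shift was divided between the libraries. Plain ratios of deposited values carry an exact 95% binomial interval from the recovered read numbers, to be held against 1.97, and these intervals cover counting error only. The sorted protein's own gene, Slc39a10, had 49.4 RPKM in ZIP10-positive cells, against 11.1 RPKM in ZIP10-negative cells, the direction its labels give.

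Junction genes as a whole followed the median gene. Of the 45 genes, 39 reached 1 RPKM in at least 1 library, and their median log2 ratio relative to the median gene was 0.09, the same as the 0.09 over all 12249 genes tested. At least 2-fold higher in ZIP10-positive cells were 6 of the 39 junction genes, or 15.4%, beside 14.7% of all genes tested. At least 2-fold lower were 4, or 10.3%, beside 11.4% of all genes tested. Both shares are near the background and set the list apart in neither direction. The sign relative to the median gene turned with the scaling for 9 of the 39: Cldn4, Cldn10, Cdh1, Ctnnd1, Dsg3, Dsc2, Dsp, Pkp1 and Gjb6. As deposited, 18 were at least 2-fold higher and 0 lower, beside 44.1% and 3.55% of all genes tested. In a bulk library a smaller number of cells of one type and a lower amount of RNA per cell cannot be told apart.

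The members spread widely around that median. The 6 higher genes were F11r, Cldn8, Cldn12, Marveld3, Gjb2 and Epcam, and the 4 lower genes were Tjp1, Mllt4, Dsc1 and Jup. F11r, Cldn8, Cldn12 and Marveld3 remained at least 2-fold higher as deposited and under each of 3 rescalings, while Epcam and Gjb2 were under 2-fold when the libraries were scaled to genes outside the 50 most abundant. A pseudocount of 5 in place of 1 brought the low genes Cldn8, Cldn12 and Marveld3 under 2-fold, at log2 ratios of 0.92, 0.59 and 0.46, and Epcam at 0.82, while F11r at 1.70 and Gjb2 at 1.16 kept the call. The 4 lower genes were then under 2-fold as well, at -0.94 for Tjp1, -0.72 for Mllt4, -0.62 for Dsc1 and -0.95 for Jup. Tjp1, Mllt4, Dsc1 and Jup remained at least 2-fold lower under the 3 rescalings, and their deposited values were also lower in ZIP10-positive cells, by less than 2-fold. For Dsc1 and Jup the counting intervals of the deposited ratio, 0.362 to 1.09 and 0.842 to 1.10, hold equality. The counting interval lay wholly above the median gene for 10 of the 39 genes, or 25.6%, beside 24.1% of the 12039 genes for which an interval could be had. It lay wholly below for 7, or 17.9%, beside 22.5%.

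**Figure D1:**
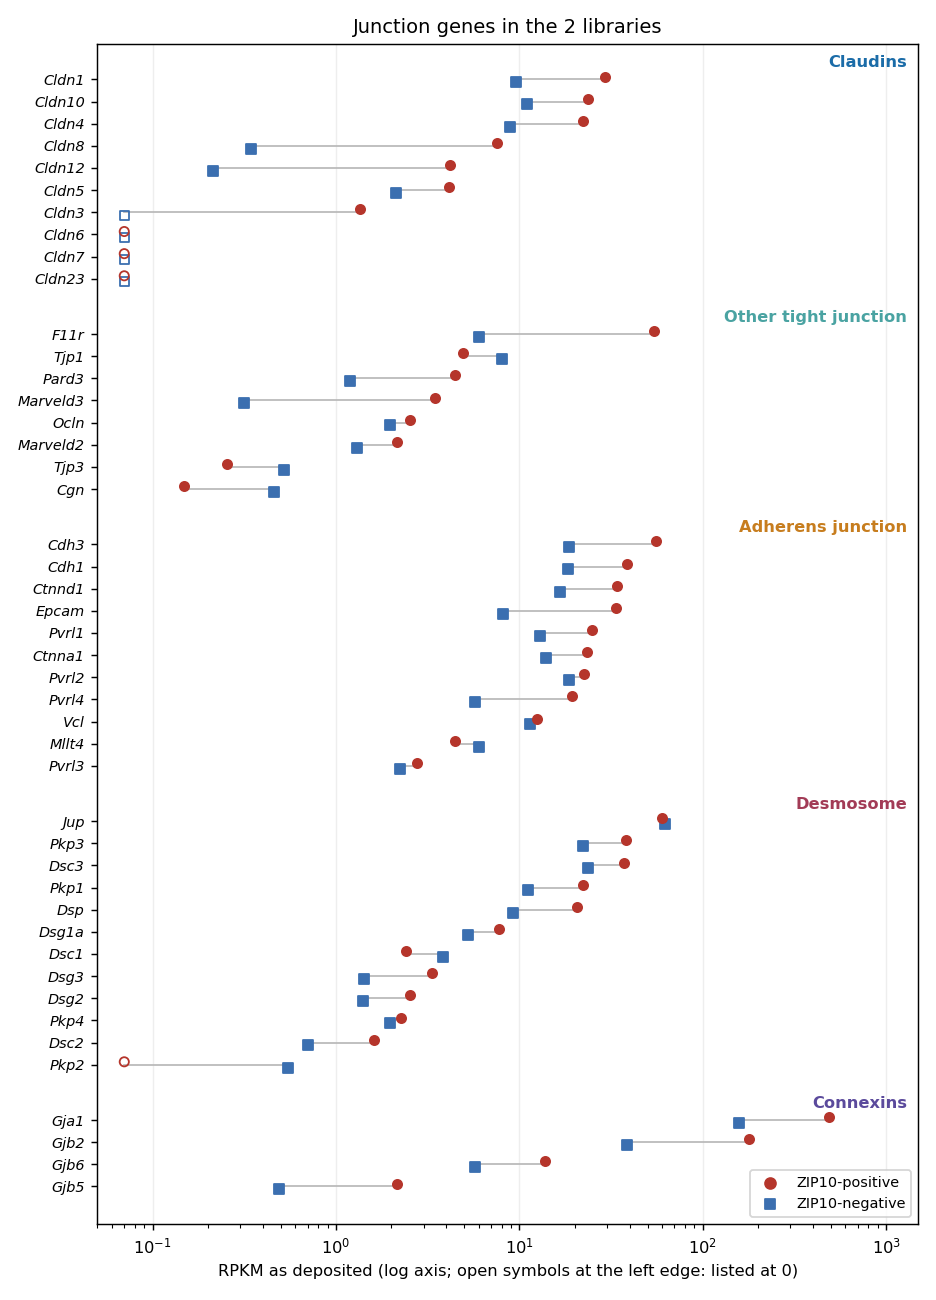
Deposited RPKM of each of the 45 junction genes on a log axis, with ZIP10-positive cells as red circles and ZIP10-negative cells as blue squares, grouped by junction type and ordered by the higher value; open symbols at the left edge are values listed at 0. Gja1 is the most abundant gene in both libraries, and Tjp1, Tjp3, Cgn, Mllt4, Dsc1, Jup and Pkp2 are the genes whose square lies to the right.

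To set sequence beside these values, promoters were taken from RefSeq (GRCm38.p6, matched by symbol), which covered 29 of the 45 genes. In the 250 bases before the annotated start, the E-box CAGGTG, on either strand and so also read as CACCTG, was found for 11 of the 29 genes, or 37.9%, beside 17.8% of 9606 tested genes and 19.4% of all 27025 genes with a promoter. Of the 7 motifs counted, 6 were more frequent among these promoters than among tested genes, so the E-box is not singled out by its share, and it was picked for display with the matches known. A gene counts as holding a motif if any of its annotated starts does. The 11 genes were Cldn4, Cldn6, Cldn7, Epcam, F11r, Gjb2, Ocln, Pard3, Pkp4, Pvrl2 and Tjp3, which include genes above, near and below the median gene and 2 listed at 0. The 29 genes were not filtered by level and include Cldn6, Cldn7, Tjp3 and Cgn, which are not tested genes, so the compared shares rest on unlike filters. The GC box GGGCGG was found for 79.3% of the 29 genes and 63.7% of tested genes, CCAAT for 44.8% and 40.6%, TATAAA for 13.8% and 8.48%, TGANTCA for 10.3% and 5.65%, and AACNGGTT for 10.3% and 1.87%. AACCGGTT, which is also a match to AACNGGTT, was found for 0 of the 29 genes and 0.239% of tested genes. These 7 motifs were counted on both strands, may overlap, and matches of different motifs are not exclusive. A match is a run of letters and not a shown site.

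Shown 5′ to 3′ are the windows of 3 of the higher genes, F11r, Epcam and Gjb2, and of the lower gene with the highest level, Jup, with each CAGGTG or CACCTG in capitals. They do not stand for higher and lower genes at large: the windows of Cldn12, another higher gene, hold 0 matches, as do those of Tjp1 and Mllt4. F11r lies at chr1:171437311-171437560 on the plus strand, Epcam at chr17:87635729-87635978 on the plus strand, Gjb2 at chr14:57104703-57104952 on the minus strand and Jup at chr11:100397791-100398040 on the minus strand, all in GRCm38.p6.
F11r: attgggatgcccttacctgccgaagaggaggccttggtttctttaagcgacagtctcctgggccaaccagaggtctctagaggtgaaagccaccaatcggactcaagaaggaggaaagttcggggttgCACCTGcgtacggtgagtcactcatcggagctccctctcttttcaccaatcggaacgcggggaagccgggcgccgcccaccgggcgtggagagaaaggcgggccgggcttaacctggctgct
Epcam: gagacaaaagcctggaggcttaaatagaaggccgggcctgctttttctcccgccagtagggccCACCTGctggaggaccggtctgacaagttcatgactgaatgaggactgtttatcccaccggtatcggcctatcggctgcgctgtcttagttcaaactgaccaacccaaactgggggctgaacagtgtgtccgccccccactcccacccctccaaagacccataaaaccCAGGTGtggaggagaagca
Gjb2: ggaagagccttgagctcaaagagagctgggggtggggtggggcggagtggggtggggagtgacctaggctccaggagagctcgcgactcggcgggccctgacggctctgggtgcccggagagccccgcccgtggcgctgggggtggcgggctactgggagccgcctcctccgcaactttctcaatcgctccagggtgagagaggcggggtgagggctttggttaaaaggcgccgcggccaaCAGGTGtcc
Jup: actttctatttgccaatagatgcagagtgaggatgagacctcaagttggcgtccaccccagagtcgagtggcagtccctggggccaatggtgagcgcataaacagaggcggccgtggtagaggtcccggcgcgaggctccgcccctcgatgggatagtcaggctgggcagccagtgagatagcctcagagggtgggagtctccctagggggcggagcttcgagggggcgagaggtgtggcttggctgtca
The E-box begins at position -122 in F11r, at -187 and -19 in Epcam and at -9 in Gjb2, counted back from the annotated start, and the Jup window holds 0 matches.

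Among claudins, the strand proteins of tight junctions, the same genes led in both libraries, and Cldn8 and Cldn12 differed most. Cldn1, without which mice lose the water barrier of the skin, stood at 29.4 RPKM in ZIP10-positive cells, against 9.58 RPKM in ZIP10-negative cells, from 249 and 79 reads. Its ratio of 3.07 had a counting interval of 2.38 to 4.01, above the median gene's 1.97, and its log2 ratio relative to the median gene was 0.61. Cldn4, a sealing claudin of many epithelia, stood at 22.1 RPKM in ZIP10-positive cells, against 8.93 RPKM in ZIP10-negative cells, a ratio of 2.48 with an interval of 1.69 to 3.69 that holds the median gene. Cldn10, a claudin that forms ion-selective pores, stood at 23.7 RPKM in ZIP10-positive cells, against 11.03 RPKM in ZIP10-negative cells, a ratio of 2.15 with an interval of 1.39 to 3.56. Cldn1, Cldn10 and Cldn4 made up 31.8%, 25.7% and 23.9% of the claudin RPKM in ZIP10-positive cells, against 29.7%, 34.2% and 27.7% in ZIP10-negative cells, so that Cldn1 ranked first in the ZIP10-positive library and Cldn10 in the ZIP10-negative library. In ZIP10-negative cells Cldn10 rests on about 28 reads, estimated from a median length, and Cldn4 on 39, so the order there is uncertain. Such shares do not depend on how the libraries are scaled to each other, but they carry counting error.

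Cldn8, known from the kidney collecting duct as a paracellular barrier, stood at 7.50 RPKM in ZIP10-positive cells, against 0.342 RPKM in ZIP10-negative cells. These values rest on 45 and 2 reads, and the ratio of 21.9 had an interval of 5.73 to 187, wide but above the median gene. Cldn12, a claudin that lacks the usual scaffold-binding tail, stood at 4.18 RPKM in ZIP10-positive cells, against 0.214 RPKM in ZIP10-negative cells, or about 39 and 2 reads, with an interval of 4.92 to 163. Together with the pseudocount of 1 their log2 ratios relative to the median gene were 2.10 and 1.61. Cldn8 made up 8.11% of claudin RPKM in ZIP10-positive cells and 1.06% in ZIP10-negative cells. Cldn5, the main claudin of endothelial cells, stood at 4.15 RPKM in ZIP10-positive cells, against 2.13 RPKM in ZIP10-negative cells, from 14 and 7 reads. Its log2 ratio relative to the median gene was -0.01. The ratio of 1.95 had a wide interval of 0.737 to 5.71, which holds both equality and the median gene. Of 8 endothelial markers 4 reached 1 RPKM in a library, Emcn was listed at 0 in both, and their summed level was 24.1 RPKM in ZIP10-positive cells, against 3.87 RPKM in ZIP10-negative cells. Of that, Egfl7 held 16.5 RPKM in ZIP10-positive cells, against 0.321 RPKM in ZIP10-negative cells. The part of endothelial cells in the Cldn5 value was not tested.

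The remaining claudins were scarce. Cldn3 stood at 1.36 RPKM in ZIP10-positive cells, about 4 reads, while ZIP10-negative cells had it listed at 0. Cldn6, Cldn7 and Cldn23 were listed at 0 in both libraries. A value of 0 in such a table can be a failed estimate, so it is not read as absence. The 7 claudins at 1 RPKM or more had a median log2 ratio of 0.61 relative to the median gene, or 0.46 over the 6 above 0 in both libraries. Of the 7, Cldn3, Cldn8 and Cldn12 reached 1 RPKM in the ZIP10-positive library alone, which favours higher ratios. Of 13 further claudins 9 were listed at 0 in both libraries and 3 reached 1 RPKM in a library, with 1 at least 2-fold above the median gene and 1 that far below it. Cldn9, the higher one, stood at 6.96 RPKM in ZIP10-positive cells, against 0.594 RPKM in ZIP10-negative cells, or about 24 and 2 reads. Cldn19, the lower one, stood at 0.356 RPKM in ZIP10-positive cells, against 1.11 RPKM in ZIP10-negative cells, or about 2 and 7 reads.

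F11r gave the clearest difference among the other tight junction genes. It encodes junctional adhesion molecule A, which sits at epithelial tight junctions and is also carried by leukocytes and platelets. F11r stood at 54.2 RPKM in ZIP10-positive cells, against 6.00 RPKM in ZIP10-negative cells, or about 350 and 38 reads. The ratio of 9.04 had an interval of 6.42 to 12.9, and the log2 ratio relative to the median gene was 2.07. It ranked at percentile 89.1 of tested genes in ZIP10-positive cells, against 64.0 in ZIP10-negative cells. F11r stood at 1.40 times the RPKM of Cdh1 in ZIP10-positive cells and at 0.325 times in ZIP10-negative cells. F11r made up 75.1% of the RPKM of these 8 tight junction genes in ZIP10-positive cells, against 30.3% in ZIP10-negative cells.

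Macrophage and mast cell markers were higher in ZIP10-positive cells, as F11r was, while T cell markers were lower. Of 10 macrophage markers 8 reached 1 RPKM in a library and 6 were at least 2-fold higher relative to the median gene, with a summed level of 1137 RPKM in ZIP10-positive cells, mostly Lyz2, against 50.4 RPKM in ZIP10-negative cells, where 5 of the 10 were listed at 0. Of 5 mast cell markers 4 were at least 2-fold higher, with 299 RPKM in ZIP10-positive cells, against 14.3 RPKM in ZIP10-negative cells. The 3 T cell markers, Cd3d, Cd3e and Cd3g, summed to 77.8 RPKM in ZIP10-positive cells, against 567 RPKM in ZIP10-negative cells. The part of these cells in the F11r value was not tested.

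Tjp1 went the other way from F11r. It encodes the zonula occludens scaffold that binds claudins, occludin and F11r, and it is used by many cells besides keratinocytes. Tjp1 stood at 4.95 RPKM in ZIP10-positive cells, against 8.06 RPKM in ZIP10-negative cells, or about 81 and 129 reads, and the ratio of 0.615 had an interval of 0.458 to 0.815. Its log2 ratio relative to the median gene was -1.44, the lowest of the 39 genes. It made up 6.86% of the RPKM of these 8 genes in ZIP10-positive cells, against 40.7% in ZIP10-negative cells. F11r stood at 10.95 times the RPKM of Tjp1 in ZIP10-positive cells and at 0.744 times in ZIP10-negative cells.

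The membrane proteins of the occludin family were low, and the counting intervals of their ratios overlap. Ocln, occludin, stood at 2.52 RPKM in ZIP10-positive cells, against 1.97 RPKM in ZIP10-negative cells, with a log2 ratio of -0.43 relative to the median gene. Its ratio of 1.28 had an interval of 0.583 to 2.86, which holds both equality and the median gene. Marveld2, tricellulin of the contacts where 3 cells meet, stood at 2.16 RPKM in ZIP10-positive cells, against 1.30 RPKM in ZIP10-negative cells, and its interval of 0.667 to 4.21 holds both equality and the median gene. Marveld3, a relative of both, stood at 3.48 RPKM in ZIP10-positive cells, against 0.315 RPKM in ZIP10-negative cells. That rests on about 16 reads and 1 read, with a ratio of 11.04 and an interval of 2.42 to 655. Pard3, a polarity protein of tight junctions, stood at 4.44 RPKM in ZIP10-positive cells, against 1.19 RPKM in ZIP10-negative cells, a ratio of 3.73 whose interval of 1.86 to 8.55 holds the median gene. The scaffold genes Tjp3 and Cgn were under 1 RPKM in both libraries, at 0.254 and 0.149 RPKM in ZIP10-positive cells and 0.521 and 0.457 RPKM in ZIP10-negative cells.

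Of 20 further tight junction genes 13 reached 1 RPKM in a library, of which 1 was at least 2-fold higher relative to the median gene and 0 lower. That gene was Crb3, an apical polarity protein, at 14.7 RPKM in ZIP10-positive cells, against 2.32 RPKM in ZIP10-negative cells. Lsr, which recruits tricellulin, stood at 37.5 RPKM in ZIP10-positive cells, against 10.4 RPKM in ZIP10-negative cells, a log2 ratio of 0.83. Pard6g stood at 19.1 RPKM in ZIP10-positive cells, against 5.89 RPKM in ZIP10-negative cells, a log2 ratio of 0.65. Jam2 and Jam3, close relatives of F11r, stood at 7.71 and 9.96 RPKM in ZIP10-positive cells and 6.06 and 5.42 RPKM in ZIP10-negative cells, at or below the median gene with log2 ratios of -0.55 and -0.09.

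**Figure D2:**
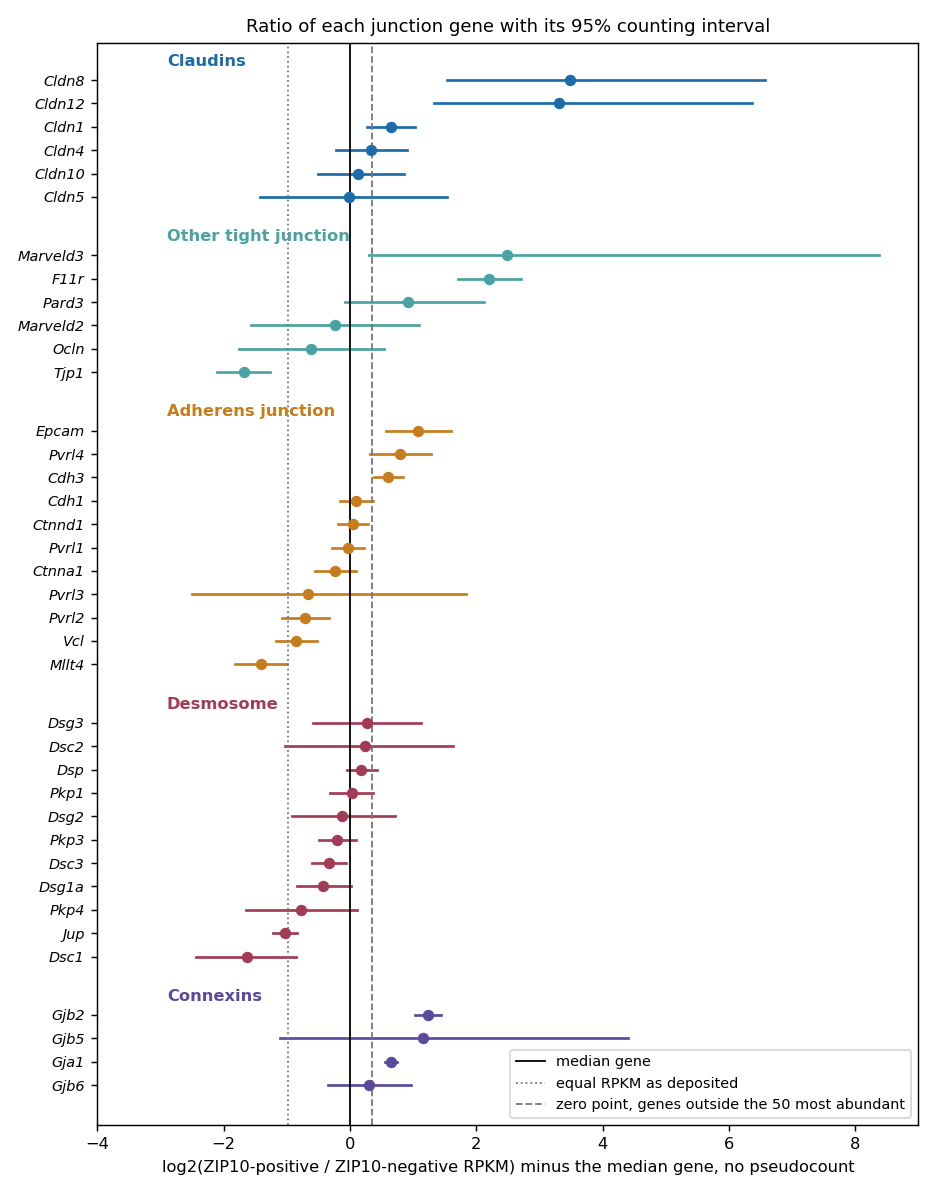
Plain log2 ratio of deposited RPKM, ZIP10-positive over ZIP10-negative, minus the median gene, for the 38 junction genes tested and above 0 in both libraries; lines are exact 95% binomial counting intervals. The vertical lines mark the median gene, equal RPKM as deposited, and the zero point from scaling to genes outside the 50 most abundant. That zero point lies 0.35 to the right of the median gene. F11r, Cldn8 and Cldn12 are among several genes to the right of all lines, with Gjb2, Epcam, Gja1 and Cdh3, while Jup lies near equal RPKM.

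Adherens junction genes lay around the median gene, with Cdh3, Pvrl4 and Epcam above it and Pvrl2, Mllt4 and Vcl below it by their counting intervals. Of 11 genes 1 was at least 2-fold higher than the median gene and 1 that far below it, and their median log2 ratio was -0.03. Cdh3, P-cadherin of basal and hair matrix cells, stood at 55.8 RPKM in ZIP10-positive cells, against 18.6 RPKM in ZIP10-negative cells, a ratio of 3.001 with an interval of 2.56 to 3.52. Cdh1, E-cadherin of all living epidermal layers, stood at 38.7 RPKM in ZIP10-positive cells, against 18.5 RPKM in ZIP10-negative cells, a ratio of 2.10 with an interval of 1.76 to 2.52 that holds the median gene. The cadherins stood nearly level in ZIP10-negative cells: Cdh3 was at 1.44 times the RPKM of Cdh1 in ZIP10-positive cells and at 1.01 times in ZIP10-negative cells. Against keratins of the same library Cdh1 stood at 0.0379 times the RPKM of Krt5 in ZIP10-positive cells and 0.0830 times in ZIP10-negative cells, but at 0.0511 and 0.0594 times that of Krt14.

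The catenins, which tie cadherins to actin, were close to the median gene. Ctnnd1, p120-catenin, stood at 33.9 RPKM in ZIP10-positive cells, against 16.6 RPKM in ZIP10-negative cells, a log2 ratio of 0.05. Ctnna1, alpha-catenin, stood at 23.3 RPKM in ZIP10-positive cells, against 13.9 RPKM in ZIP10-negative cells, a log2 ratio of -0.22. Ctnnb1, beta-catenin, which is also the effector of WNT signalling, was not among the 45 but stood at 176 RPKM in ZIP10-positive cells, against 82.6 RPKM in ZIP10-negative cells, a log2 ratio of 0.11. For Cdh1 and Ctnnd1 the sign turned with the scaling, to -0.25 and -0.29 when the 50 most abundant genes were left out of the scaling.

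Nectins, the immunoglobulin-type adhesion molecules of adherens junctions, differed among themselves. Pvrl4, nectin of epithelia, stood at 19.4 RPKM in ZIP10-positive cells, against 5.69 RPKM in ZIP10-negative cells, a ratio of 3.41 with an interval of 2.45 to 4.81. Pvrl1 stood at 25.0 RPKM in ZIP10-positive cells, against 13.0 RPKM in ZIP10-negative cells, a log2 ratio of -0.03 relative to the median gene. Pvrl2, the most widely expressed nectin, stood at 22.6 RPKM in ZIP10-positive cells, against 18.7 RPKM in ZIP10-negative cells, and its interval of 0.932 to 1.57 lies below the median gene. Pvrl3 stood at 2.76 RPKM in ZIP10-positive cells, against 2.22 RPKM in ZIP10-negative cells, and at about 6 and 4 reads its ratio was not resolved. The nectin make-up differed accordingly: Pvrl4 made up 27.8% of nectin RPKM in ZIP10-positive cells and 14.4% in ZIP10-negative cells, and Pvrl2 made up 32.4% and 47.3%.

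Afadin and vinculin were lower relative to the median gene. Mllt4, afadin, which anchors nectins to actin, stood at 4.45 RPKM in ZIP10-positive cells, against 6.00 RPKM in ZIP10-negative cells, from 89 and 117 reads, a ratio of 0.742 with an interval of 0.557 to 0.986. Its log2 ratio relative to the median gene was -1.18. Vcl, vinculin, which serves cell-matrix adhesions as well, stood at 12.5 RPKM in ZIP10-positive cells, against 11.4 RPKM in ZIP10-negative cells, a ratio of 1.09 with an interval of 0.877 to 1.37 and a log2 ratio of -0.78. An exon of Vcl overlaps one of Ap3m1 on the other strand by 2090 bases in GENCODE vM21, and the library kit named does not mark strand as far as the labels say, so reads there cannot be assigned to one of them. The same holds for shorter overlaps on the other strand of Dsp (499 bases), Dsg2 (330), Pvrl2 (135), Cldn3 (40) and Tjp3 (40), and for an overlap of 1465 bases between Ctnnd1 and Gm28635 on the same strand.

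Epcam, an adhesion molecule of hair follicle cells and Langerhans cells that binds claudins, stood at 33.6 RPKM in ZIP10-positive cells, against 8.13 RPKM in ZIP10-negative cells, from 174 and 41 reads. The ratio of 4.14 had an interval of 2.93 to 5.97, and the log2 ratio of 1.01 relative to the median gene became 0.68 when the 50 most abundant genes were left out of the scaling. Langerhans cell markers moved in the same direction: Cd207, which defines these cells, stood at 4.60 RPKM in ZIP10-positive cells, against 0.278 RPKM in ZIP10-negative cells. All 4 markers of that list were at least 2-fold higher relative to the median gene, with 931 RPKM in ZIP10-positive cells, against 107 RPKM in ZIP10-negative cells. Cd74, H2-Ab1 and H2-Aa are shared with other antigen-presenting cells, and the part of Langerhans cells in the Epcam value was not tested.

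Among 17 further adherens junction genes 11 reached 1 RPKM in a library, with 0 at least 2-fold higher than the median gene and 1 that far below it. Cdh11, a cadherin of fibroblasts and other mesenchymal cells, stood at 34.2 RPKM in ZIP10-positive cells, against 29.7 RPKM in ZIP10-negative cells, a log2 ratio of -0.75. Zyx, zyxin of actin-based adhesions, stood at 40.7 RPKM in ZIP10-positive cells, against 20.9 RPKM in ZIP10-negative cells, a log2 ratio of -0.02.

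Fibroblast markers did not move as one beside these genes. Of 7 markers 2 were at least 2-fold higher than the median gene and 1 that far below it, with a median log2 ratio of -0.54 and a summed level of 540 RPKM in ZIP10-positive cells, against 448 RPKM in ZIP10-negative cells. The part of fibroblasts in the values of Tjp1, Mllt4, Vcl and Pvrl2 was not tested.

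**Figure D3:**
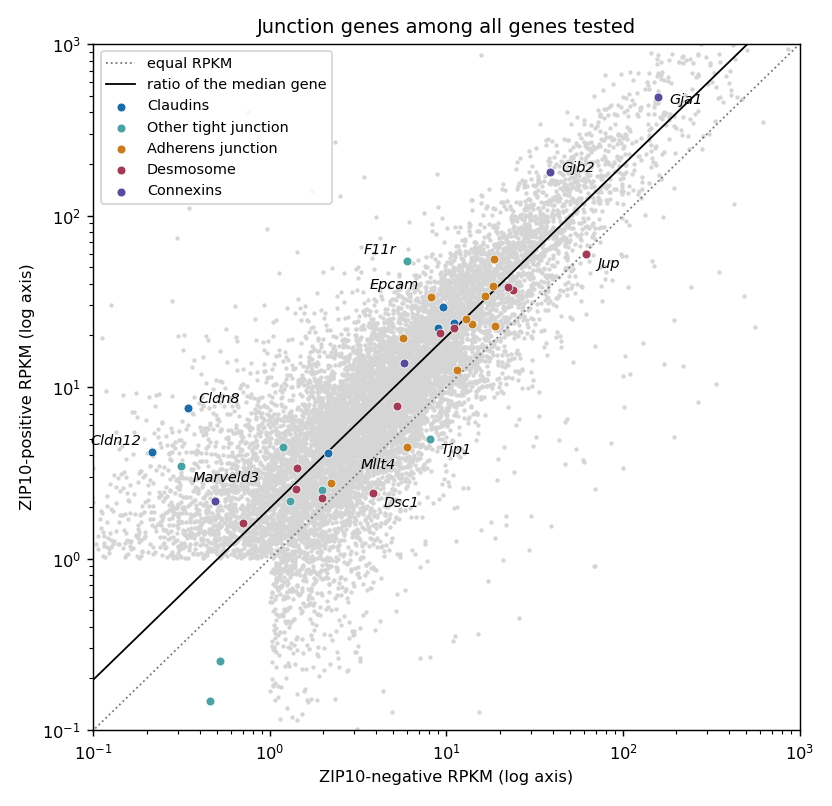
Deposited RPKM of each junction gene in ZIP10-positive cells (vertical log axis) against ZIP10-negative cells (horizontal log axis), over all genes tested in grey; values at 0 are not drawn. The dotted line is equal RPKM and the solid line the median gene's ratio of 1.97; most junction genes lie along the solid line, F11r, Cldn8, Cldn12 and Marveld3 above it and Tjp1, Mllt4, Dsc1 and Jup below the dotted line.

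The listed desmosome genes had a median slightly below the median gene, and the counting intervals of 8 of 11 held the median gene, with 3 below it. Of 11 desmosome genes at 1 RPKM or more, 0 were at least 2-fold higher than the median gene and 2 that far below it, beside 14.7% and 11.4% of all genes tested, so that neither count stands apart from the background. Their log2 ratios ran from -1.22 to 0.18 with a median of -0.20. All 12 listed genes summed to 198 RPKM in ZIP10-positive cells, against 144 RPKM in ZIP10-negative cells, a ratio of 1.38, against a median gene at 1.97. Such a sum depends on which genes are listed. The 7 further desmosome genes described below, mostly Perp, summed to 399 RPKM in ZIP10-positive cells, against 92.2 RPKM in ZIP10-negative cells, a ratio of 4.33. Jup held the largest share of the sum of the 12 genes in both libraries. It encodes plakoglobin, a catenin shared by desmosomes and adherens junctions, and stood at 59.8 RPKM in ZIP10-positive cells, against 62.1 RPKM in ZIP10-negative cells. The ratio of 0.963 had an interval of 0.842 to 1.10 from about 432 and 437 reads, and the log2 ratio relative to the median gene was -1.02. Jup made up 30.3% of desmosome RPKM in ZIP10-positive cells and 43.2% in ZIP10-negative cells. It stood at 2.91 times the RPKM of Dsp in ZIP10-positive cells and at 6.73 times in ZIP10-negative cells, and at 0.339 and 0.751 times that of its relative Ctnnb1.

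Dsp, Pkp1 and Pkp3 of the desmosomal plaque had log2 ratios between -0.20 and 0.17 relative to the median gene, and Pkp4 lay further below. Dsp, desmoplakin, which binds keratin filaments, stood at 20.6 RPKM in ZIP10-positive cells, against 9.21 RPKM in ZIP10-negative cells, a ratio of 2.23 with an interval of 1.90 to 2.63. Pkp1, plakophilin of the upper epidermis, stood at 22.2 RPKM in ZIP10-positive cells, against 11.1 RPKM in ZIP10-negative cells, a log2 ratio of 0.02. Pkp3, the plakophilin found in all epidermal layers, stood at 38.1 RPKM in ZIP10-positive cells, against 22.3 RPKM in ZIP10-negative cells, a log2 ratio of -0.20. Pkp3 and Pkp1 made up 60.9% and 35.5% of plakophilin RPKM in ZIP10-positive cells, against 62.1% and 30.9% in ZIP10-negative cells. Pkp4, which is widely expressed, stood at 2.26 RPKM in ZIP10-positive cells, against 1.98 RPKM in ZIP10-negative cells, a log2 ratio of -0.53. Pkp2, a plakophilin of heart and simple epithelia, was listed at 0 in ZIP10-positive cells and stood at 0.548 RPKM in ZIP10-negative cells, about 4 reads.

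Among desmocollins, Dsc3 was dominant in both libraries. Dsc3, the desmocollin of basal cells, stood at 37.0 RPKM in ZIP10-positive cells, against 23.7 RPKM in ZIP10-negative cells, from 300 and 188 reads, and made up 90.2% and 84.0% of desmocollin RPKM. Its ratio of 1.56 had an interval of 1.29 to 1.88, just below the median gene. Dsc1, the desmocollin of the uppermost living layers, stood at 2.41 RPKM in ZIP10-positive cells, against 3.81 RPKM in ZIP10-negative cells, from 24 and 37 reads. The ratio of 0.633 had an interval of 0.362 to 1.09 and the log2 ratio relative to the median gene was -1.22. Dsc2 stood at 1.62 RPKM in ZIP10-positive cells, against 0.699 RPKM in ZIP10-negative cells, a log2 ratio of 0.12.

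Desmogleins were low, and Dsg1a stood above Dsg3 and Dsg2 in both libraries, while Dsg3 and Dsg2 were nearly level in ZIP10-negative cells. Dsg1a, of the upper epidermis, stood at 7.70 RPKM in ZIP10-positive cells, against 5.25 RPKM in ZIP10-negative cells, a log2 ratio of -0.37. Dsg3, of basal cells, stood at 3.35 RPKM in ZIP10-positive cells, against 1.41 RPKM in ZIP10-negative cells, a log2 ratio of 0.18. Dsg2 stood at 2.53 RPKM in ZIP10-positive cells, against 1.40 RPKM in ZIP10-negative cells, a log2 ratio of -0.08. Dsg1b and Dsg1c, near-identical neighbours of Dsg1a with which it can share reads, stood at 4.69 and 2.44 RPKM in ZIP10-positive cells and 3.09 and 1.30 RPKM in ZIP10-negative cells, so single values within this trio are uncertain. Keratinocyte markers of either layer differed among themselves. Of the suprabasal keratins, Krt10 had a log2 ratio of -2.33 relative to the median gene and Krt1 one of -0.19, with an interval that holds the median gene. Of the basal markers, Krt5 had a log2 ratio of 1.22, Krt14 one of 0.31, Trp63 one of 0.31, Krt15 one of 0.10 and Itga6 one of -0.33. Sfn, not placed in a layer here, had one of 1.01. The part of cell layers in the desmosome values was not tested.

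Of 7 further desmosome genes 5 reached 1 RPKM in a library, with 1 at least 2-fold higher than the median gene and 1 that far below it. Perp, a membrane protein of desmosomes under p63 control, was more abundant than any of the 12 in both libraries. It stood at 387 RPKM in ZIP10-positive cells, against 81.8 RPKM in ZIP10-negative cells, a log2 ratio of 1.26. Jup, the most abundant of the 12, stood at 59.8 RPKM in ZIP10-positive cells and 62.1 RPKM in ZIP10-negative cells. Evpl, envoplakin, which joins desmosomes to the cornified envelope, stood at 2.32 RPKM in ZIP10-positive cells, against 3.27 RPKM in ZIP10-negative cells, a log2 ratio of -1.08. Ppl, its partner periplakin, stood at 2.48 RPKM in ZIP10-positive cells, against 1.88 RPKM in ZIP10-negative cells.

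The 4 connexins were above the median gene, although Gjb6 turned to -0.05 when the zero point was set by genes outside the 50 most abundant. Gja1, the most abundant of the 45 genes in both libraries and a widespread connexin of skin, found in keratinocytes and in dermal cells, stood at 489 RPKM in ZIP10-positive cells, against 158 RPKM in ZIP10-negative cells, at percentile 98.5 and 98.3 of tested genes. Its ratio of 3.09 had a narrow interval of 2.90 to 3.30, and its log2 ratio relative to the median gene was 0.65. Gjb2, a connexin of hair follicles and of growing epidermis whose human mutations cause deafness and skin disease, stood at 179 RPKM in ZIP10-positive cells, against 38.7 RPKM in ZIP10-negative cells. Its ratio of 4.63 had an interval of 4.02 to 5.37, and its log2 ratio of 1.22 relative to the median gene became 0.87 when the 50 most abundant genes were left out of the scaling. Gjb2 stood at 0.366 times the RPKM of Gja1 in ZIP10-positive cells and at 0.244 times in ZIP10-negative cells.

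Gjb6, a close relative and neighbour of Gjb2 that can join it in mixed channels, stood at 13.8 RPKM in ZIP10-positive cells, against 5.72 RPKM in ZIP10-negative cells, from 72 and 29 reads, a log2 ratio of 0.27. Gjb5, an epidermal connexin, stood at 2.15 RPKM in ZIP10-positive cells, against 0.491 RPKM in ZIP10-negative cells, and with 9 and 2 reads its interval of 0.909 to 41.7 holds the median gene. The 4 connexins together stood at 684 RPKM in ZIP10-positive cells, against 203 RPKM in ZIP10-negative cells, a ratio of 3.37. Of 19 further connexins and pannexins 8 reached 1 RPKM in a library, with 0 at least 2-fold higher than the median gene and 0 that far below it. Gjc1, one of them, stood at 11.9 RPKM in ZIP10-positive cells, against 5.79 RPKM in ZIP10-negative cells, a log2 ratio of 0.05.

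**Figure D4:**
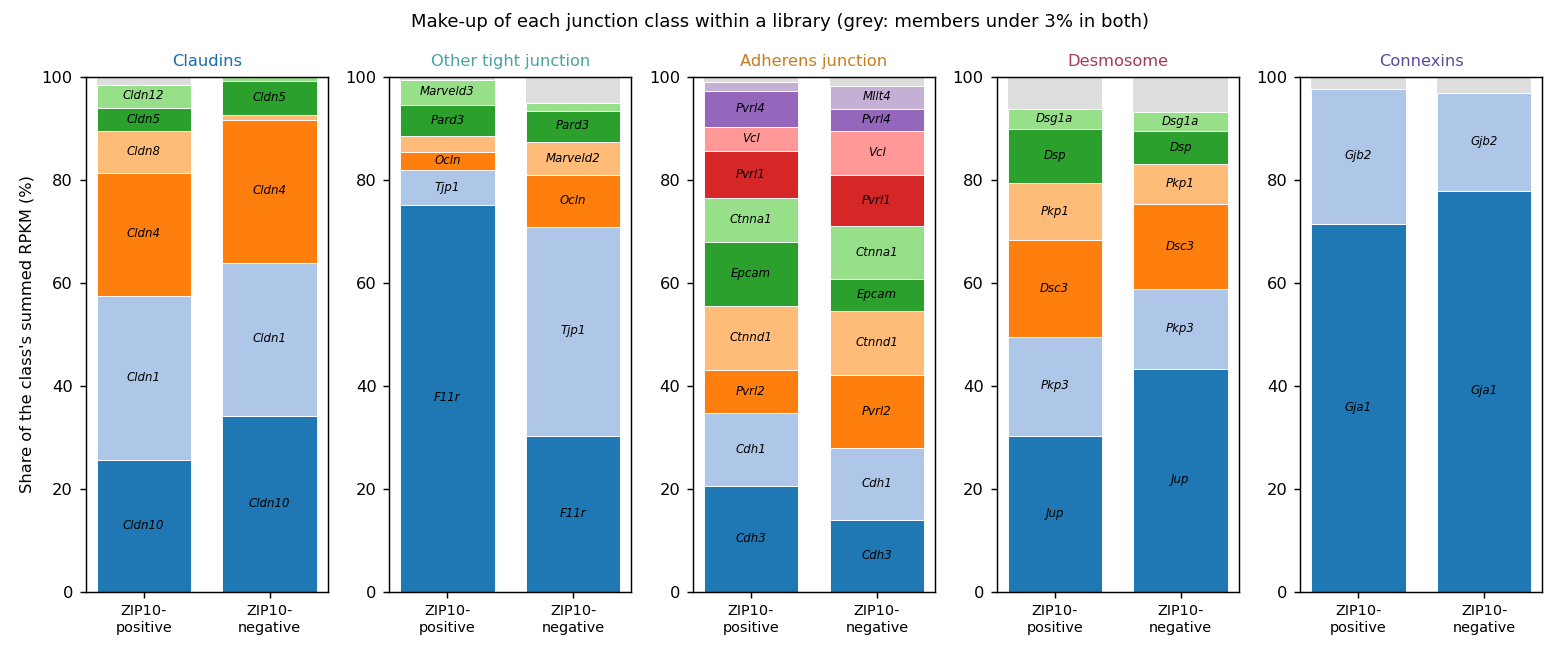
Share of each gene in the summed RPKM of its junction class, with ZIP10-positive cells as the left bar and ZIP10-negative cells as the right bar of each panel; grey is the sum of genes under 3% in both. F11r takes 75.1% of the other tight junction genes in ZIP10-positive cells and 30.3% in ZIP10-negative cells, and Jup 30.3% and 43.2% of the desmosome genes, while the order of the leading desmosome genes is similar.

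Set side by side, the class medians ran from connexins and claudins, at log2 ratios of 0.62 and 0.61 relative to the median gene, through other tight junction genes at 0.24 and adherens junction genes at -0.03 to desmosome genes at -0.20. No test of these differences is possible with 1 library per group, and all genes tested had a median of 0.09. Cldn3, Cldn8, Cldn12, Marveld3, Dsc2 and Gjb5 reached 1 RPKM in the ZIP10-positive library alone, so part of this order can come from the filter. The claudins at 1 RPKM or more in both libraries, Cldn1, Cldn4, Cldn10 and Cldn5, had log2 ratios of 0.61, 0.31, 0.12 and -0.01. The 8 keratinocyte markers were the basal Krt5, Krt14, Krt15, Trp63 and Itga6, the suprabasal Krt1 and Krt10, and Sfn. They had a median of 0.20, with 2 at least 2-fold higher and 1 lower. Their summed level was 2558 RPKM in ZIP10-positive cells, against 871 RPKM in ZIP10-negative cells. Keratinocyte RNA was thus measured in both populations. All 7 erythroid markers were lower in ZIP10-positive cells, with a median of -5.40, and melanocyte and Schwann cell markers had medians of -0.44 and -0.33.

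**Figure D5:**
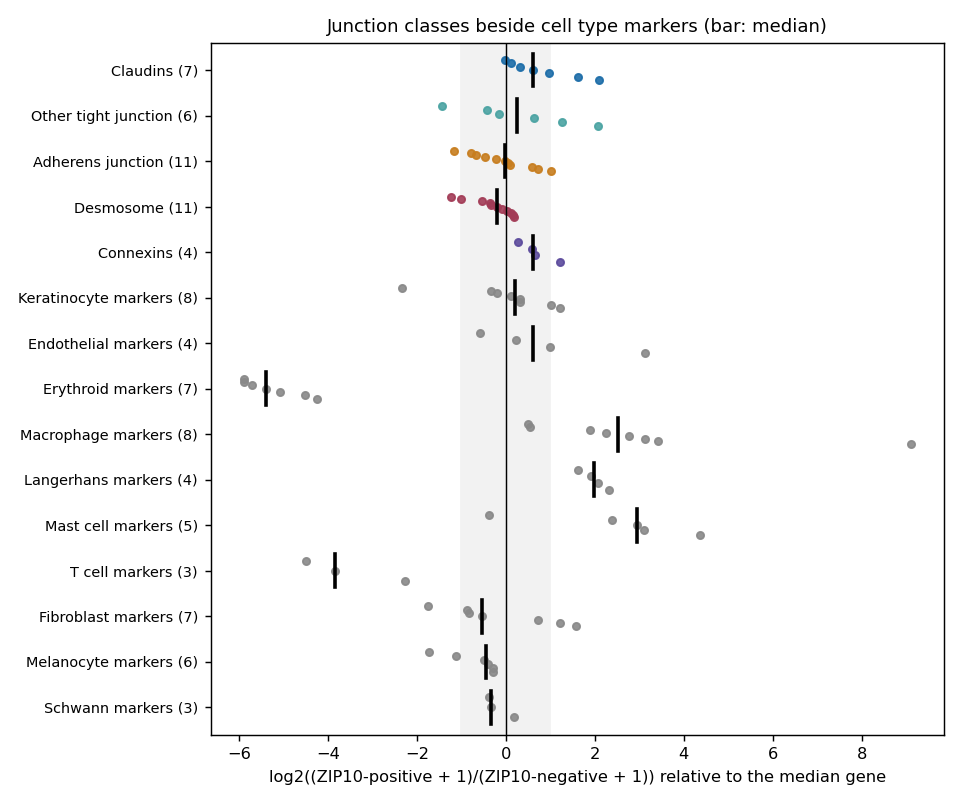
log2((ZIP10-positive + 1)/(ZIP10-negative + 1)) relative to the median gene for each gene at 1 RPKM or more in a library (points), by junction class in colour and by cell type marker list in grey, with the number of genes in parentheses and the median as a bar; the shaded band is less than 2-fold. Junction classes have medians between -0.20 and 0.62, inside the band, while the medians of macrophage, Langerhans cell and mast cell markers lie to its right, with Cd68, Cd14 and Kit inside the band, and those of erythroid and T cell markers to its left.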

How the data were processed

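RNA of 2 sorted populations was sequenced, in single reads of 50 bases, per the labels' protocols, after a NEBNext Ultra preparation that started with 10 ng of RNA. The authors deposited RPKM values, 1 per gene symbol and library. Per the submitters' processing notes, the build was mm9 and the tools included Cufflinks, TopHat and cutadapt; versions, settings, annotation and strand use are not given there. The reference used is GRCm38 with GENCODE vM21, which served for names, transcript lengths, exon overlaps and RefSeq promoters, and the promoter coordinates are on that build.

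The comparison took in the 12249 genes that reached 1 RPKM in either library. The median gene was the median log2 ratio, 0.98, of 9620 genes at 1 RPKM or more in both. A gene that passed through its higher library alone tends to differ, so counts over genes that passed are descriptions. Of the 45 genes, Cldn6, Cldn7, Cldn23, Tjp3, Cgn and Pkp2 did not pass.

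Reads were recovered because low genes of both libraries stood at 0.975 times a ratio of whole numbers. This held for 64.8% of 1389 genes at 1 RPKM or less, with numbers up to 20 and a tolerance of 0.0012%. Absolute depth came from 80 such genes that have a single annotated transcript; the estimates of 40.0% of them fell no more than 1.5% from their mode, with an assumed length offset of 199 bases. For 17 of the 45 genes a ratio of whole numbers also gave an annotated length within 2.5%. For 25 the read numbers are estimates from the median length of the gene's annotated protein-coding transcripts, and 3 were listed at 0. Intervals are exact Clopper-Pearson intervals at 95%. Reads carry no molecular identifiers.

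Named are all 45 genes. From lists of other junction genes, those at 5 RPKM or more and 2-fold apart and up to 3 of the most abundant were to be named; Jam2, Jam3, Dsg1c, Evpl and Ppl fall outside it and were chosen after their values were seen, and some genes of these lists are not reported here. The genes and lists were chosen with earlier results of these data known, and the placing of Pard3 and Epcam in a class was a choice. Python 3.11.15, pandas 2.3.3, numpy 2.4.6, scipy 1.17.1 and matplotlib 3.10.9 were used. The scaling and the recovered ratio of depths were tested on simulated data, while the absolute depth and the read numbers of single genes were not. Alternatives were other scalings, pseudocounts of 0.1 and 5, and other filters.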

Additional observations from a re-analysis of the deposited data

How the results depend on the processing

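As deposited, 18 genes were higher by 2-fold or more and 0 lower, against 6 and 4 relative to the median gene, and the median log2 ratio was 0.94 over all 39 genes, 0.90 for adherens junction genes, 0.62 for desmosome genes and 1.38 for connexins. Adherens junction genes moved to -0.36 when the 50 most abundant genes were left out of the scaling and to -0.42 with scaling without globin genes and Rn45s. These scalings move the zero point by 0.35 and 0.42, and genes of low level by less because of the pseudocount. Under them 4 genes were 2-fold or more above the median gene and 6 below, and 9 of the 39 turned from above to below 0. A pseudocount of 5, which pulls low genes towards 0, left 2 higher, F11r and Gjb2, and 0 lower. A pseudocount of 0.1 gave 8 and 4, no filter 6 and 4, a minimum of 5 RPKM 4 and 3, and keeping genes above 0 in both libraries 6 and 4. With no filter the median of other tight junction genes turned to -0.29, under that of desmosome genes at -0.26. No paired analysis was possible because each group has 1 library, and no library could be left out. Depth limits genes under about 0.599 RPKM on a transcript of 2000 bases, the level of 3 reads.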
